A study of Rattus norvegicus with 6 samples.

Results

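The genes described here encode surface proteins by which mesenchymal stem cells (MSCs) are recognized. They are 5 of the 32883 Ensembl genes counted, listed by identifier with no cut on their values, though earlier results of these data were known. The positive markers are Cd44 (ENSRNOG00000006094), Thy1 (ENSRNOG00000006604), Nt5e (ENSRNOG00000011071) and Itgb1 (ENSRNOG00000010966). The negative marker is Ptprc (ENSRNOG00000000655). All 6 samples were rat bone marrow MSCs (rBMSCs), primary cells of Lewis rats, and neither the labels nor the methods tie a library to an animal. RNA was taken on day 4 from 3 samples grown in 3D Nichoids and 3 grown on 2D Nichoids. The labels letter the samples of a group A, B and C, and values given library by library follow that order. A 3D Nichoid is a scaffold of stacked polymer grids, and the 2D Nichoid used as control is a single layer of the same grid in the same resist. No other treatment separated the groups.

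An MSC population is commonly defined by surface proteins that its cells carry together with proteins that blood cells carry and MSCs lack. CD44, the product of Cd44, binds hyaluronan in the matrix. CD90, the product of Thy1, is a small glycoprotein held in the membrane by a lipid anchor. CD73, the product of Nt5e, is an enzyme that makes adenosine outside the cell from AMP. CD29, the product of Itgb1, is the beta 1 chain shared by many integrins, the receptors by which cells hold to collagen, laminin and fibronectin. CD45, the product of Ptprc, is a phosphatase on the surface of nearly all blood cells except mature red cells, and it is used to show that a culture holds no leukocytes. Counts of messenger RNA do not measure how much of these proteins lies on the cell surface. Counts per gene also do not part the splice forms for which Cd44 and Ptprc are known.

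Total counts per library ranged from 38353363 to 41860684, and 13523 genes had enough counts to be tested. Of the marker genes, 4 were tested and Ptprc was not. A principal component analysis used log2 CPM (counts scaled to a fixed library total) with the TMM scaling explained below. The first component (43.2% of the variance) parted the groups, with the 3D Nichoid libraries from -36.3 to -31.4. On it the 2D Nichoid libraries lay at 22.0, 24.8 and, for replicate C, 52.5. Replicate C of the 2D Nichoids also lay at 41.3 on the second component (23.0% of the variance), apart from the other 2D Nichoid libraries at -32.5 and -30.1. The 3D Nichoid libraries lay from 5.99 to 7.73. Results without replicate C of the 2D Nichoids are therefore given beside the main ones.

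The 4 positive markers were counted in every library and the negative marker in none. Ptprc had 0 counts in each 3D and each 2D Nichoid library, out of 236623108 counts altogether. A count of 0 allows up to 3 counts per library, which is a level of 0.0717 to 0.0774 CPM in the 3D Nichoid libraries and of 0.0767 to 0.0782 CPM in the 2D Nichoid libraries. These limits cover counting error only, and no difference in Ptprc between the groups was detectable at this depth. A count of 0 in all 6 libraries was shared by 14636 gene identifiers (44.5%). Markers of other cell types were not analysed here, as their identifiers were not matched to symbols.

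The positive markers fell into a pair that was lower in 3D Nichoids, Cd44 and Nt5e, and a pair that was higher with TMM scaling, Thy1 and Itgb1, though not called with total counts only. All changes were small. The log2(FC) of the 4 genes, 3D over 2D Nichoids, lay between -0.27 and 0.13, far from the cutoff of 1 in either direction that the study set for a differentially expressed gene (DEG). The levels given next are CPM scaled with TMM, a method that corrects for differences in the makeup of libraries. In bulk RNA, fewer cells that express a gene and less of its RNA per cell cannot be told apart.

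Cd44, the hyaluronan receptor, had 28686, 26222 and 27340 counts in 3D Nichoids against 32273, 31730 and 32179 in 2D Nichoids. Its level was 705 ± 6.16 CPM (SD, n = 3) in 3D Nichoids and 801 ± 10.8 CPM (SD, n = 3) in 2D Nichoids. Every 3D Nichoid library lay below every 2D Nichoid library, with 712 CPM as the highest value in 3D and 792 CPM as the lowest in 2D. Cd44 expression fell by 12.0% (95% interval -14.4% to -9.49%), which is -0.18 on the log2(FC) scale (SE 0.02, edgeR adjusted p value 3.31e-10). Ranked by count among all genes of a library, a position that does not depend on scaling, Cd44 stood 163rd to 168th in 3D Nichoids and 118th to 122nd in 2D Nichoids.

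Nt5e, which encodes the adenosine-forming enzyme CD73, was counted least of the tested markers, with 1186, 1092 and 1235 counts in 3D Nichoids against 1494, 1294 and 1570 in 2D Nichoids. Its level was 30.1 ± 1.49 CPM (SD, n = 3) in 3D Nichoids and 36.3 ± 3.25 CPM (SD, n = 3) in 2D Nichoids. The groups did not overlap, but they came close, since replicate C of the 3D Nichoids reached 31.8 CPM and replicate B of the 2D Nichoids was at 32.6 CPM. Nt5e expression fell by 17.0% (95% interval -25.4% to -7.59%). Its log2(FC) was -0.27 (SE 0.08, edgeR adjusted p value 0.00454). Ranked by count, where no scaling enters, Nt5e stood 5289th, 5289th and 5001st in 3D Nichoids against 4530th, 5023rd and 4482nd in 2D Nichoids, and by this measure the groups overlapped. Nt5e had the largest estimate of the 4 markers and the widest interval.

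Thy1, which encodes the lipid-anchored glycoprotein CD90, had 67020, 60215 and 64677 counts in 3D Nichoids against 60441, 60084 and 60477 in 2D Nichoids. Its level was 1646 ± 34.2 CPM (SD, n = 3) in 3D Nichoids and 1508 ± 17.7 CPM (SD, n = 3) in 2D Nichoids. Replicate B of the 3D Nichoids, the lowest of its group at 1606 CPM, was still above the highest 2D Nichoid library at 1523 CPM. With TMM scaling, Thy1 was higher in 3D Nichoids by 9.13% (95% interval 6.57% to 11.8%), which is 0.13 on the log2(FC) scale (SE 0.02, edgeR adjusted p value 6.44e-08). Its rank by count overlapped between the groups, from 53rd to 55th in 3D Nichoids and from 53rd to 54th in 2D Nichoids.

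Itgb1, which encodes the integrin chain CD29, had 88327, 82822 and 85777 counts in 3D Nichoids against 80510, 80605 and 82554 in 2D Nichoids. Its level was 2204 ± 11.0 CPM (SD, n = 3) in 3D Nichoids and 2030.0 ± 1.65 CPM (SD, n = 3) in 2D Nichoids. The 2D Nichoid libraries were almost equal, from 2028 to 2032 CPM, and all 3D Nichoid libraries lay above them, from 2192 to 2212 CPM. With TMM scaling, Itgb1 was higher in 3D Nichoids by 8.59% (95% interval 6.40% to 10.8%), which is 0.12 on the log2(FC) scale (SE 0.01, edgeR adjusted p value 7.68e-09). Its rank by count went the other way, from 36th in every 2D Nichoid library to between 39th and 42nd in 3D Nichoids. Levels of different markers were not set against each other, because transcript lengths were not used here.

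**Figure D1:**
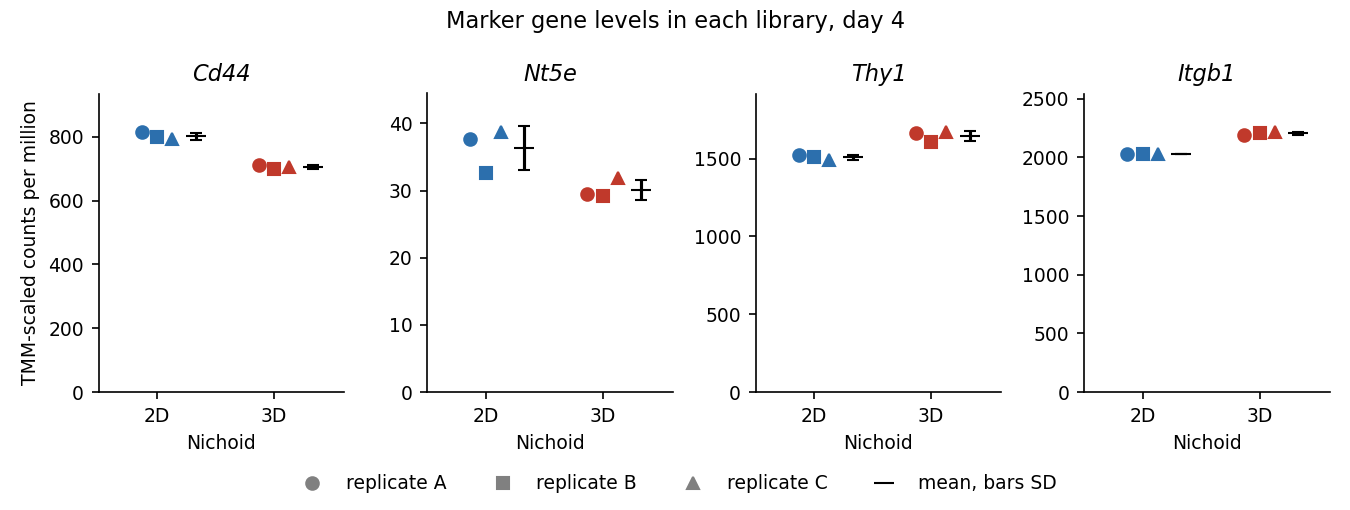
TMM-scaled CPM (vertical axes, from 0) of each tested marker in the 2D (blue) and 3D (red) Nichoid libraries, with the replicate letter as symbol and the mean and SD in black. Cd44 and Nt5e lie lower in 3D Nichoids (705 against 801 and 30.1 against 36.3 CPM), Thy1 and Itgb1 higher (1646 against 1508 and 2204 against 2030.0 CPM), and the groups do not overlap in any panel. With total counts only, the last 2 genes overlap.

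The size of all 4 changes depended on the scaling of the libraries. The calls of Thy1 and Itgb1 depended on it too, and those of Cd44 and Nt5e did not. In CPM of the total count alone, Thy1 was at 1601, 1554 and 1610 in 3D Nichoids against 1575, 1567 and 1546 in 2D Nichoids. Itgb1 was at 2110.0, 2137 and 2135 against 2098, 2102 and 2111. The groups overlapped for both genes. With total counts only, the log2(FC) was 0.02 for Thy1 (adjusted p value 0.263, edgeR) and 0.02 for Itgb1 (adjusted p value 0.384, edgeR), so neither was called. Cd44 then had a log2(FC) of -0.29 (adjusted p value 1.30e-15, edgeR) and Nt5e of -0.37 (adjusted p value 0.000111, edgeR).

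That setting also shifted the median log2(FC) over all genes by -0.10, from -0.006 to -0.108. Relative to the median gene, the 4 markers kept their values, because a change of factor moves every gene alike. The distance from the median was -0.18 for Cd44, -0.26 for Nt5e, 0.13 for Thy1 and 0.12 for Itgb1 with TMM and with total counts only. The TMM factors that make this difference were 0.963 to 0.967 in the 3D Nichoid libraries and 1.03 to 1.04 in the 2D Nichoid libraries.

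**Figure D2:**
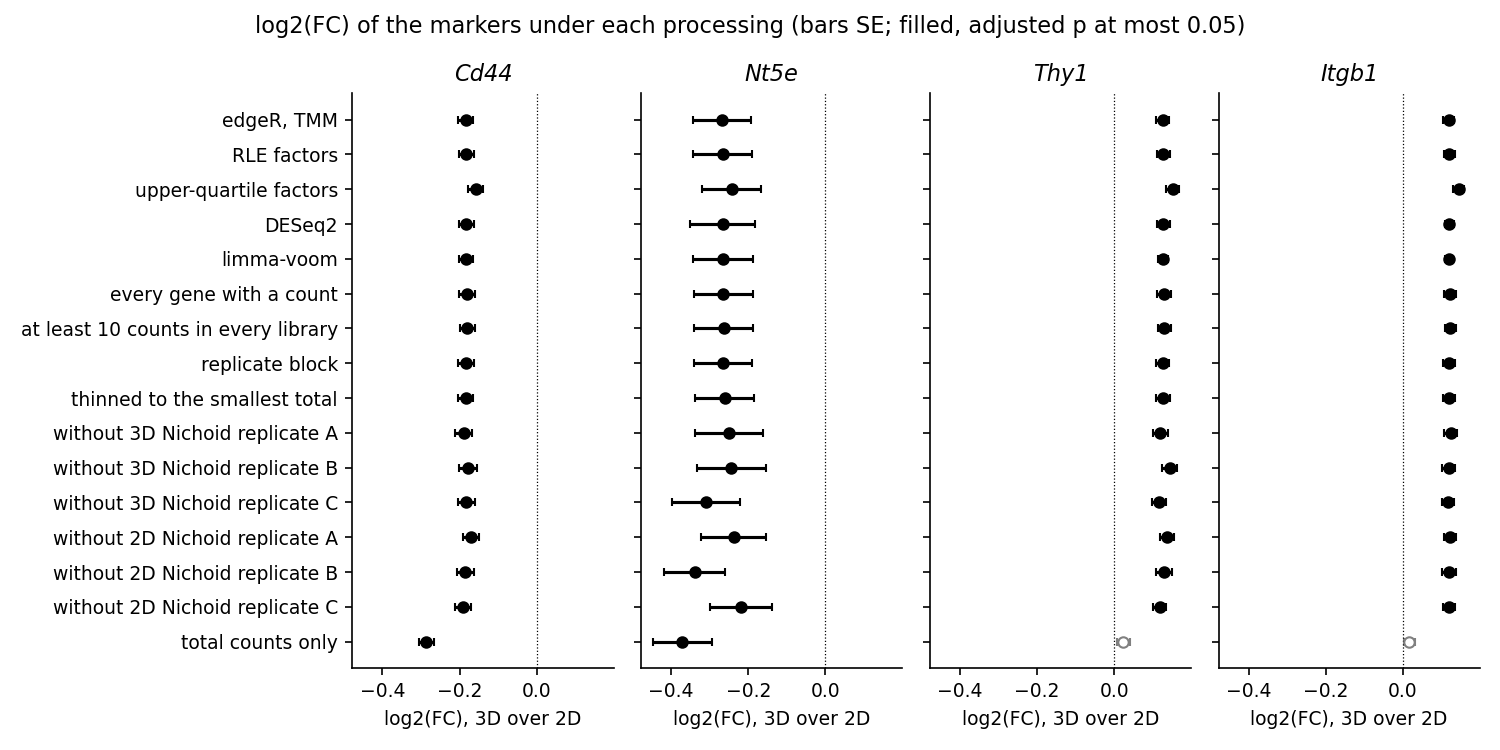
The log2(FC) of each marker, 3D over 2D Nichoids (horizontal axis, bars SE), under each way of processing the counts (rows), with filled points where a gene was called. Cd44 and Nt5e stay below 0 and filled in every row, while Thy1 and Itgb1 drop to 0.02 and are open with total counts only.

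The ratio of a pair of markers inside a library does not depend on how libraries are scaled, and its change between groups does not depend on transcript length. All 6 pairs of the 4 tested markers were compared by their log2 ratio of counts. With 3 libraries against 3, a two-sided exact permutation test cannot give a p value under 0.1. In 4 of the 6 pairs the groups did not overlap and p reached that smallest value (exact permutation test, p = 0.1, adjusted over the 6 pairs 0.15), so none passed the threshold. Among all pairs, of any direction, of the 5816 genes with a mean count of at least 1000, 63.3% did not overlap either.

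The 4 separated pairs were those that join a marker of the lower pair with one of the higher pair. For each gene the groups were already apart in TMM-scaled CPM, in opposite directions. These ratios therefore had to separate, and their separation is no further support. The log2 ratio of Cd44 to Thy1 was -1.22, -1.20 and -1.24 in 3D Nichoids against -0.91, -0.92 and -0.91 in 2D Nichoids, a difference of -0.31 between means. The ratio of Cd44 to Itgb1 was -1.62, -1.66 and -1.65 against -1.32, -1.35 and -1.36, a difference of -0.30. Cd44 thus lay about 0.3 log2 units lower against each of these genes in every 3D Nichoid library. Nt5e to Itgb1 differed by -0.38, with -6.24 to -6.12 in 3D and -5.96 to -5.72 in 2D Nichoids. Thy1 to Nt5e differed by 0.39, with 5.71 to 5.82 against 5.27 to 5.54.

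The pairs within each direction overlapped. The log2 ratio of Thy1 to Itgb1 was -0.40, -0.46 and -0.41 in 3D Nichoids against -0.41, -0.42 and -0.45 in 2D Nichoids. The difference was 0.007 (exact permutation test, p = 0.7, adjusted 0.7) and stayed between -0.005 and 0.026 with each library left out. For Cd44 to Nt5e the ratios were 4.60, 4.59 and 4.47 against 4.43, 4.62 and 4.36, a difference of 0.08 (exact permutation test, p = 0.4, adjusted 0.48) that ranged from 0.026 to 0.15 with each library left out. These ranges show the pull of single libraries only and are not intervals for the difference. The pooled SD of the ratio was 0.027 for Thy1 to Itgb1 and 0.107 for Cd44 to Nt5e (n = 3 per group). The values do not show that the genes of a pair changed alike.

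**Figure D3:**
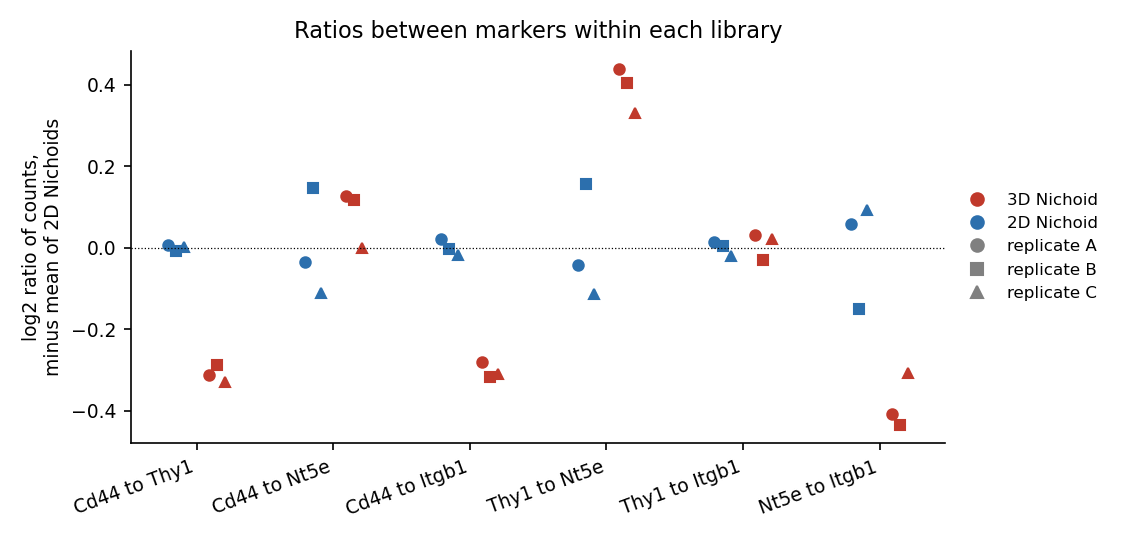
Log2 ratio of counts for each pair of markers in each library, less the mean of the 2D Nichoid libraries (vertical axis), with 3D Nichoids in red, 2D Nichoids in blue and the replicate letter as symbol. In Cd44 to Thy1, Cd44 to Itgb1, Thy1 to Nt5e and Nt5e to Itgb1 the groups are apart, by -0.31, -0.30, 0.39 and -0.38 between means, and in Cd44 to Nt5e and Thy1 to Itgb1 they overlap.

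Replicate libraries were close to each other for the heavily counted markers. The coefficient of variation (CV, the SD over the mean) of Cd44 was 0.873% in 3D and 1.35% in 2D Nichoids, and that of Thy1 was 2.08% and 1.18%. Itgb1 varied by 0.499% in 3D Nichoids and by 0.0811% in 2D Nichoids, where counting alone gives 0.351%. Of all tested genes with a value, 0.037% had a smaller CV than Itgb1 in 2D Nichoids. That CV rests on 3 libraries and lies below counting alone, so it does not show that Itgb1 is unusually steady. Nt5e varied more, by 4.94% in 3D and 8.95% in 2D Nichoids, against 2.92% and 2.62% from counting alone. Among genes with a mean count of at least 1000, the median CV was 3.27% in 3D and 4.02% in 2D Nichoids, above the values of Cd44, Thy1 and Itgb1. Counting alone gave a median of 2.02% and 1.98% for those genes, but at most 0.604% for Cd44, Thy1 and Itgb1. The comparison therefore does not show that these markers were steadier than genes with like counts. The most distant library of each group added most to the spread of Nt5e, as it must with 3 libraries. Without replicate C of the 3D Nichoids its CV was 0.720%, and without replicate B of the 2D Nichoids it was 1.85%. These values rest on 2 libraries each and lie below counting alone, so they do not mark a library as unusual.

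All 4 tested markers were called, that is, their adjusted p value did not exceed 0.05. Of all genes a large share was called too. Over all tested genes it was 37.8%, with 18.8% lower and 18.9% higher in 3D Nichoids. Among genes with a mean count of at least 1000, as all 4 markers had, it was 55.6%, with 28.4% lower and 27.2% higher. The balance of directions over all genes depended on the scaling, with 2560 called higher and 2549 lower with TMM, and 1638 higher and 4161 lower with total counts only. The groups did not overlap in TMM-scaled CPM for any of the 4 markers, as for 46.9% of all tested genes and 62.4% of those with a mean count of at least 1000. By mean count, however, Cd44, Thy1 and Itgb1 stood above 99.0%, 99.6% and 99.7% of tested genes, and Nt5e above 63.7%. The shares called and not overlapping among genes counted as heavily as the first of these were not computed and may be higher. None of the 4 was a DEG, a class that held 3.42% of tested genes and 1.03% of those with a mean count of at least 1000.

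In size, the changes of the markers were within the common range of tested genes. The median absolute log2(FC) was 0.21 over all tested genes and 0.15 over those with a mean count of at least 1000. The absolute log2(FC) of Itgb1 exceeded that of 31.0% of all tested genes, Thy1 that of 32.9%, Cd44 that of 45.2% and Nt5e that of 59.7%. Against genes with a mean count of at least 1000 these shares were 40.1% for Itgb1, 42.6% for Thy1, 57.9% for Cd44 and 74.3% for Nt5e.

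**Figure D4:**
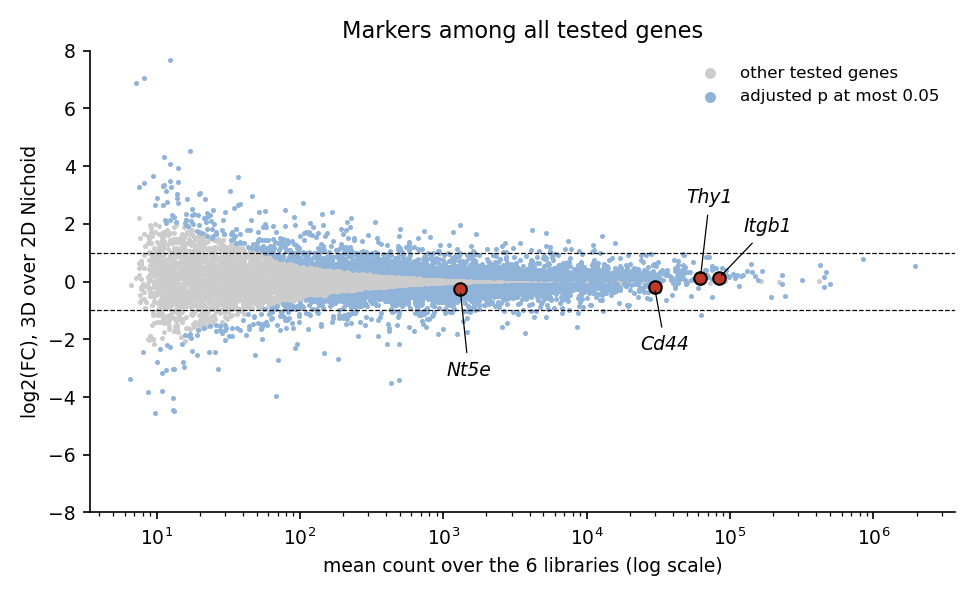
The log2(FC) of every tested gene, 3D over 2D Nichoids (vertical axis), against its mean count over the 6 libraries (horizontal log axis), with genes past the adjusted p value in blue, the 4 markers in red and dashed lines at 1 and -1. The markers lie between -0.27 and 0.13, inside the body of genes with like counts and well within the dashed lines.

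Without replicate C of the 2D Nichoids, the library that stood apart, all 4 markers were still called. The log2(FC) was then -0.19 for Cd44, -0.22 for Nt5e, 0.12 for Thy1 and 0.12 for Itgb1. For Nt5e the adjusted p value rose from 0.00454 to 0.0269 (edgeR quasi-likelihood test). With each of the 6 libraries left out in turn, the largest adjusted p value of Nt5e was 0.0355 and its log2(FC) ranged from -0.34 to -0.22.

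The genes whose CPM followed a marker most closely over the 6 libraries can be given by identifier only. Over 6 libraries in 2 groups, such a likeness is a description in which the difference between the groups takes a large part. ENSRNOG00000014509 (Pearson r = 0.99997, log2(FC) -0.47) and ENSRNOG00000008289 (r = 0.9991, log2(FC) -0.17) were closest to Cd44. ENSRNOG00000020266 (r = 0.9996, log2(FC) 0.39) and ENSRNOG00000003029 (r = 0.9993, log2(FC) 0.46) were closest to Itgb1.

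Promoter sequence is shown for Nt5e, lower in 3D Nichoids, and Itgb1, higher with TMM scaling. They were the markers whose promoter window lay wholly outside the annotated gene. Each run is the 250 bases before the RefSeq start of the gene in build GRCr8, on the plus strand, at chr8:98150675-98150924 for Nt5e and chr19:73602027-73602276 for Itgb1. GRCr8 is not the build on which the reads were counted. Capitals mark matches, on either strand, to the motifs searched. These were the TATA box TATAAA, the GC box GGGCGG, the CCAAT box CCAAT, the AP-1 motif TGANTCA, the TEAD motif GGAATG and the E-box CACGTG.
Nt5e: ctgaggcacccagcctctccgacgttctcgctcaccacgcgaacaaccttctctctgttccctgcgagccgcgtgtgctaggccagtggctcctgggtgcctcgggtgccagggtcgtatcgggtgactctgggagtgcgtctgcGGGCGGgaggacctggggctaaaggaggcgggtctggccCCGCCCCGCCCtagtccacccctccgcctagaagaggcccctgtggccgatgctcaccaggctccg
Itgb1: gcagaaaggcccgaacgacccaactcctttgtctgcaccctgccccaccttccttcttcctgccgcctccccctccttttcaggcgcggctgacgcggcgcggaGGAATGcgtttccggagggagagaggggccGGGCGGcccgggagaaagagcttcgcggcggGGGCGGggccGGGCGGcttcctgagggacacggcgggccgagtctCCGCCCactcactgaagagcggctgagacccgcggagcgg

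Both promoters hold GC boxes, the motif bound by Sp1 and related factors. Nt5e has 3, with first bases 105, 66 and 61 bases before the start, the last 2 overlapping in the run CCGCCCCGCCC. Itgb1 has 4, at 116, 85, 75 and 40 bases before the start, and 1 TEAD motif at 146. A GC box was found in 30.5% and a TEAD motif in 12.1% of the 33469 promoters of the same length. The 250 bases before the RefSeq start of Cd44 held a match to none of the 6 motifs, and neither did those of Ptprc. Unlike the printed windows, that of Cd44 lies wholly inside the span of a longer model of its gene, and 64 bases of that of Ptprc do. The G and C content was 68.8% for Nt5e, 71.2% for Itgb1, 60.8% for Cd44 and 36.0% for Ptprc, against a median of 51.2% over all promoters. The matches are a description of letters, and their relation to the changes in expression was not tested.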

How the data were processed

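RNA sequencing libraries of rBMSCs from 3D Nichoids (n = 3) and 2D Nichoids (n = 3) were grouped by the sample labels. The deposited values are whole, unscaled read counts for each Ensembl gene. The authors aligned single-end reads with STAR 2.7.0a and counted with HTSeq. The submitters' processing notes name HTSeq 0.12.4 and build Rnor_6.0, while the paper names a later build and HTSeq release. Strand, reads on several genes and PCR copies are not described, so overlapping or near-identical genes may share counts.

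The marker genes and the motifs were chosen with earlier results of these data known, and identifiers and symbols were paired by the rule that defines the genes. The RefSeq table (GRCr8) held all 5 symbols and 0 Ensembl identifiers, so the lists of partner genes and of other cell types were not analysed here. A RefSeq promoter was found for 4 of the 5 genes, Thy1 being the exception. The Cd44 window lies wholly and the Ptprc window partly inside a longer gene model, and neither is printed.

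Counts were fitted over all genes with edgeR 4.0.16 in R 4.3.3, using filterByExpr, TMM, the robust quasi-likelihood test without covariates and Benjamini-Hochberg adjustment. A gene was called when its adjusted p value did not exceed 0.05, and as a DEG also at an absolute log2(FC) above 1. The SE is the log2(FC) divided by the square root of F, and intervals are at 95%. Ratios used counts plus 0.5 and a two-sided exact permutation test. DESeq2 1.42.0 and limma 3.58.1 were alternatives, and the procedure was tested on simulated data. Genes of like pattern had a mean count of at least 50. The labels do not say that libraries came from separate cultures or animals, so p values refer to these libraries only. In edgeR the spread of a gene is drawn partly from all genes fitted, so its p values do not rest on the gene's own libraries alone. DESeq2 and limma also share spread between genes, so agreement among them does not test this. Figures were drawn in Python 3.11.15.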

Additional observations from a re-analysis of the deposited data

How the results depend on the processing

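Cd44 and Nt5e remained called and lower in 3D Nichoids in all 9 other fits and in the 6 fits without 1 library, with adjusted p values of at most 0.0101 and 0.0355 for Nt5e. Thy1 and Itgb1 remained called and higher in 8 of 9 other fits and in all 6 without 1 library. The exception was total counts only, with a log2(FC) of 0.024 (Thy1) and 0.017 (Itgb1). That setting moved the group means to 680.9 (3D) and 830.3 CPM (2D) for Cd44, 1588 and 1563 for Thy1, and 2128 and 2103 for Itgb1, by more than 1 SD. RLE factors moved no mean by 1 SD. Upper-quartile factors, chosen after seeing the data, gave a log2(FC) of -0.16 (Cd44), -0.24 (Nt5e), 0.15 (Thy1) and 0.14 (Itgb1). The number of genes past the adjusted p value, 5109, ranged from 4158 to 5009 without 1 library.

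In the fit with a replicate block, by letter, the log2(FC) was -0.18, -0.27, 0.13 and 0.12 for Cd44, Nt5e, Thy1 and Itgb1, and 5132 genes were called. Libraries of 1 letter did not deviate together (correlations 0.035, -0.011 and 0.025). For the 6 ratios, pairing by letter cannot move a difference of means, since each letter occurs once per group. An exact sign-flip test over the letters gave p = 0.25 for the separated pairs, 0.5 for Cd44 to Nt5e and 0.75 for Thy1 to Itgb1. A prior count of 5 changed the differences by less than 1 SD, as it must with counts of at least 1092.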
